A study of Mus musculus with 2 samples.

Results

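Regulatory T cells were described in 2 single-cell RNA libraries of live immune cells sorted from mouse intestine after 10 Gy of X-rays, 1 from mice labelled DPF2 KO and 1 from mice labelled WT. They were selected on raw unique molecular identifiers (UMIs), the tags that count captured RNA molecules. A regulatory T cell had at least 1 UMI of Foxp3, at least 2 UMIs summed over the T cell receptor genes Cd3e, Cd3d, Cd3g, Trbc1 and Trbc2, none of Cd8b1, none of the B cell genes Ebf1 and Pax5, and at most 2 of the division genes Mki67 and Top2a. Of 19577 cells with at least 500 UMIs, at least 200 genes and at most 20% mitochondrial UMIs, 147 met the rule, 31 of 8681 in the KO library and 116 of 10896 in the WT library. Both genotypes were irradiated, and no unirradiated sample was analysed here. Per the labels, the tissue was digested, stained for viability and sorted on GFP or Tdtomato signal, present or absent. The sources used here do not give which cells carried those reporters, the time after irradiation, the age, strain and number of the mice, the deleted piece of Dpf2 or any limit of the deletion to a cell type.

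Regulatory T cells are CD4 T cells that restrain other immune cells, and the transcription factor Foxp3 holds their identity. In the gut they keep tolerance to food and microbes and support epithelial repair, through the cytokine IL-10, through CTLA-4, which strips costimulatory ligands from antigen-presenting cells, and through the integrin αvβ8 (Itgav and Itgb8), which releases active TGF-β. One gut population expresses Helios (Ikzf2), GATA3 and the IL-33 receptor ST2 (Il1rl1), and another expresses c-Maf (Maf) and is induced by microbes. DPF2 is a subunit of the BAF chromatin remodelling complex.

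There was 1 library per genotype, so no test between genotypes was possible. Intervals below are 95% limits for counting error only and leave out differences between mice and between preparations. Levels are UMIs per 1000000 UMIs summed over the cells of a group, written UPM, on which 1 UMI in the 31 KO cells is worth 6.07. Comparisons were made with other T cells, which met the same rule with no Foxp3 UMI (864 in KO, 2700 in WT), and with B cells (1851 in KO, 1227 in WT) as a population that should lack most of these genes. Regulatory T cells had a median of 4851 UMIs in KO (2740 to 11514) and 4960 in WT (1676 to 24034), with a median of 2042 and 2082 genes and of 1.52% and 1.39% mitochondrial UMIs. The 24 barcodes found in both libraries included no regulatory T cell. Each library held cells of both sexes, and regulatory T cells with Xist UMIs and no Y-linked UMI (the Xist class, 8 in KO and 35 in WT) or the reverse (the Y class, 8 and 47) are given apart, for eligible genes of the lists and rankings that are named with an overall interval clear of 1, where the ratio lay on the other side of 1 in a class. A further 10 WT regulatory T cells and no KO one had UMIs of both kinds, and 15 KO and 24 WT cells had neither. Among other T cells, 65 in KO and 251 in WT had both kinds. The part of cells with both kinds in the results below was not tested.

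The targeted gene, Dpf2 (chr19:5896516-5913010, GRCm38), had 6 UMIs in 5 KO regulatory T cells and 26 UMIs in 21 WT regulatory T cells. Its level was 36.4 UPM in KO and 35.5 in WT, a ratio of 1.03 with an interval of 0.345 to 2.55, so a lower level in KO was not detectable at this depth. In other T cells the Dpf2 level was 19.98 in KO and 38.1 in WT (ratio 0.524, 0.413 to 0.659). Since the deleted piece is not given, these reads may come from a part of the transcript that the deletion leaves in place, and the genotype names below are those of the labels.

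Regulatory T cells made up 3.46% of T cells in KO (31 of 895, exact binomial interval 2.37 to 4.88) and 4.12% in WT (116 of 2816, 3.42 to 4.92). The ratio of 0.841 had outer bounds of 0.481 and 1.43, so no difference in their share of T cells was detectable. Against all sorted immune cells they were 0.357% in KO (0.243 to 0.507) and 1.07% in WT (0.881 to 1.28), a ratio of 0.335 (0.190 to 0.575) in libraries where T cells were 895 of 8681 and 2816 of 10896 cells. With at least 1 Cd4 UMI required in addition, the share of T cells was 5.22% in KO (13 of 249) and 5.08% in WT (50 of 985). With at least 2 Foxp3 UMIs it was 1.01% in KO (9 cells) and 1.67% in WT (47 cells). A Foxp3 UMI was seen in 0.216% of B cells in KO (4 cells) and in 0.408% in WT (5 cells), which is the background of such calls.

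The rule left thin margins. Of the KO cells, 22 had exactly 1 Foxp3 UMI, 8 had 2 and 1 had 3, and of the WT cells 69 had 1, 31 had 2, 12 had 3, 2 had 4 and 2 had 5. Just inside the receptor threshold, 6 KO and 10 WT cells had exactly 2 receptor UMIs, and just outside it 11 KO and 19 WT cells with a Foxp3 UMI met every other clause. A further 18 KO and 34 WT cells with a Foxp3 UMI were left out only by Ebf1 or Pax5, none and 4 only by Cd8b1, and none and 7 only by the division genes.

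The label held against its markers. Foxp3 (chrX:7573644-7595245), which chose the cells, stood at 249 UPM in KO and 253 in WT. Helios (Ikzf2, chr1:69531214-69687245) reached 3853 UPM in KO regulatory T cells and 862 in KO other T cells, and 3787 in WT regulatory T cells and 672 in WT other T cells. CTLA-4 (Ctla4) stood at 1687 UPM in KO regulatory T cells and 684 in other T cells, against 1780 and 845 in WT. Il10 and Itgb8 were rare but concentrated in the regulatory T cells, Il10 6.94-fold higher than in other T cells in KO and 6.17-fold in WT, and Itgb8 13.7-fold and 11.1-fold. All 4 markers that the rule did not use were therefore higher than in other T cells in both libraries. Cd4 had UMIs in 13 of 31 KO and 50 of 116 WT cells, Cd8a in 1 and 3, and the γδ receptor constant gene Trdc in 2 and 2.

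**Figure D1:**
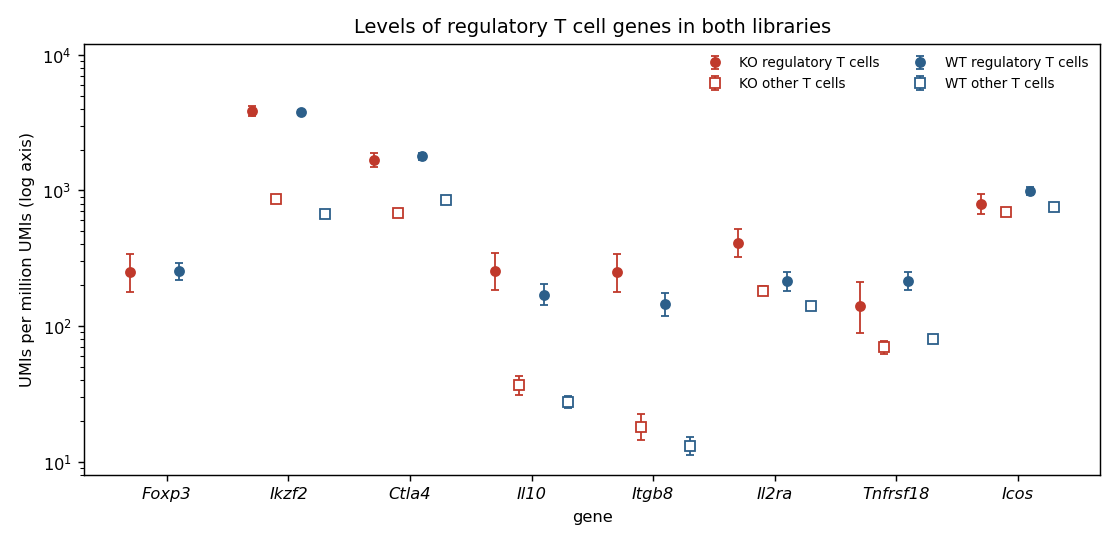
Levels of 8 regulatory T cell genes (x axis) in UPM on a log axis, for regulatory T cells (filled circles) and other T cells (open squares) of the KO (red) and WT (blue) libraries; bars are 95% counting intervals. Ikzf2, Ctla4, Il10 and Itgb8 lie above the other T cells of the same library in both, Icos lies close to them (794.8 against 692 UPM in KO), and Foxp3 has no point in other T cells because the rule sets it to 0 there.

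Other cell types' transcripts were present in the regulatory T cells and were mostly lower in KO. The summed level of 10 plasma cell genes was 5478 UPM in KO and 19840 in WT, and every regulatory T cell held Igkc UMIs, from 5.37 to 58.4 per 10000 UMIs in KO and from 13.1 to 2287 in WT. The 10 B cell genes summed to 285 UPM in KO and 1113 in WT, of which Cd74 alone gave 206 and 1017, with Cd79a at 0 UMIs in KO and 16 in WT. The 9 dendritic cell genes summed to 358 and 664, the 11 monocyte or macrophage genes to 297 and 422, the 8 CD8 genes to 212 and 590, the 8 NK cell genes to 127 and 499.7, and the 7 stromal genes to 346 and 464. Among their defining markers, Ncr1, Flt3, Xcr1 and Col1a1 were at 0 UMIs in KO and at 3, 5, 1 and 5 UMIs in WT, and Krt8, Klrb1c, Il5 and Il13 were at 0 in both. The 7 neutrophil genes lay the other way, with 66.7 in KO and 16.4 in WT, as did the 12 epithelial genes with 109 and 13.7. So did the 7 γδ T cell genes with 18.2 and 12.3, where the KO sum is worth 3 UMIs. With totals taken without immunoglobulin genes, none of the recomputed log2 ratios or list medians changed direction. The part of these transcripts in the results below was not tested.

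Integrin, TNF receptor family and IL-33 receptor genes stood above other T cells in both libraries. Among 1920 eligible genes, those with at least 100 UMIs over both libraries of regulatory T cells and a UMI in at least 5% of them in 1 library, 38 (1.98%) were at least 2-fold higher than in other T cells in both libraries. After Itgb8, the furthest were Frmd5 (5.96-fold in KO and 11.7-fold in WT), the metalloprotease gene Adamts6 (7.22 and 5.41), Il10, Ikzf2 and Nckap5 (4.92 and 5.51). The TNF receptor family members Tnfrsf9 (4-1BB; 5.10-fold in KO and 4.27-fold in WT) and Tnfrsf4 (OX40; 5.16 and 4.28), which carry costimulatory signals, and Il1rl1 (6.74 and 4.69) followed. Tox (4.46 and 3.93), Dst (5.53 and 3.87), Hopx (5.18 and 3.34), Snx9 (3.25 and 3.49), the unnamed transcript E130308A19Rik (3.46 and 2.97) and Itgav (3.47 and 2.67), the partner chain of Itgb8, completed the 15 furthest. The IL-2 receptor chain CD25 (Il2ra) was 2.26-fold higher in KO and 1.52-fold in WT, and GITR (Tnfrsf18) 2.01-fold and 2.67-fold. Other T cells are those with no Foxp3 UMI, so they include any regulatory T cell whose Foxp3 RNA was not captured.

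Genes lower in regulatory T cells included those of helper and cytotoxic T cells. At least 2-fold lower in both libraries were 84 of 8578 genes (0.979%) eligible in the other T cells. The receptor gene Il12rb2, through which IL-12 drives helper type 1 cells, had no UMI in the KO cells and 69.6 UPM in WT, against 359 in KO and 543.5 in WT other T cells. Interferon γ (Ifng) had 3 UMIs in KO and 17 in WT, a level 8.62-fold and 6.32-fold below that of other T cells. The helper type 17 cytokine genes Il22 (1 UMI in KO and 14 in WT) and Il17a (0 and 48) were low as well, as were Fasl (2 and 10), Mctp2 (10 and 66), Nmrk1 (3 and 18), Serpinb1a (1 and 5) and Creb5 (0 and 7), while 8030451A03Rik had no UMI in either. All of these genes met the minimum in the other T cells only. Creb5 and 8030451A03Rik stood at only 21.35 and 35.1 UPM in KO other T cells, where 3 UMIs in the KO regulatory T cells are worth 18.2. The Creb5 ratio in KO had an interval of 0 to 1.07. Il7r, the IL-7 receptor chain that conventional T cells keep high, stood at 0.686 of the other T cells' level in KO and 0.552 in WT.

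Markers of both gut populations were found in both libraries, and single cells often carried both. To compare detection at 1 depth, each cell was thinned to 1000 UMIs, which left out none of the regulatory T cells. After thinning, Ikzf2 was detected in 77.4% of KO cells (58.9 to 90.4) and 69.0% of WT cells (59.7 to 77.2), against 1.79% and 1.71% of B cells. Maf was detected in 38.7% of KO cells and 37.9% of WT cells, against 6.71% and 5.95% of B cells. Without thinning, 20 of the 21 KO cells with a Maf UMI also had an Ikzf2 UMI, as did 77 of 89 in WT. Il10 UMIs came with Maf in 10 of 13 KO and 36 of 39 WT cells and with Ikzf2 in 12 of 13 and 35 of 39. Itgb8 came with Ikzf2 in 13 of 13 KO and 37 of 39 WT cells, Il1rl1 in 10 of 10 and 33 of 33, and Areg in 16 of 16 and 29 of 29. Ikzf2 itself was found in 28 of 31 KO and 97 of 116 WT cells without thinning, which is the share to set these pairs against.

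Between genotypes the identity genes were close. Helios differed by a ratio of 1.02 (0.932 to 1.11) and CTLA-4 by 0.947 (0.829 to 1.08). In single cells Ikzf2 had a lowest, median and highest value of 0, 32.3 and 152 UMIs per 10000 in KO and of 0, 36.6 and 169 in WT, and Ctla4 of 0, 15.3 and 51.6 in KO and 0, 17.5 and 103.5 in WT, so the cells of both genotypes overlapped, with the highest Ctla4 values in WT. Il10 stood at 255 UPM in KO (42 UMIs in 13 cells) and 171 in WT (125 UMIs in 39 cells), a ratio of 1.49 (1.03 to 2.13). A single KO cell held 12 of those 42 UMIs, and without the top cell of each library the log2 ratio was 0.24. Itgb8 stood at 249 UPM in KO (41 UMIs in 13 cells) and 145 in WT (106 in 39), a ratio of 1.72 (1.17 to 2.49). Among Xist-class cells both were lower in KO, with log2 ratios of -1.12 for Itgb8 and -0.86 for Il10, where KO had 2 and 4 UMIs. In Y-class cells the Il10 log2 ratio was 0.03, and as a mean over all cells it was 0.002. Helios had ratios of 0.838 in the Xist class and 0.816 in the Y class, and CTLA-4 of 1.18 and 1.13.

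Over the 1920 eligible genes the median log2 ratio was 0.04 after adding 10 UPM to each level. At least 2-fold higher in KO were 41 genes (2.14%) and at least 2-fold lower 72 (3.75%), and at least 1.5-fold higher or lower were 188 (9.79%) and 234 (12.2%). The shares of 9.79% and 12.2% are those to set beside the counts given for each list below. The 12 genes furthest on each side, ranked by the bound of the ratio's interval nearest to 1, are named below. B cell, plasma cell, myeloid, stromal and epithelial list genes were left out of this ranking. Among those, Igkc, Jchain and Cd74 had upper bounds of 0.225, 0.263 and 0.286, further from 1 than the 0.326 of Atp10a, the furthest lower gene ranked. Because 1 cell is a larger piece of the 31 KO cells than of the 116 WT cells, leaving out the top cell of each gene left 19 of the 41 higher and 71 of the 72 lower genes past 2-fold.

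**Figure D2:**
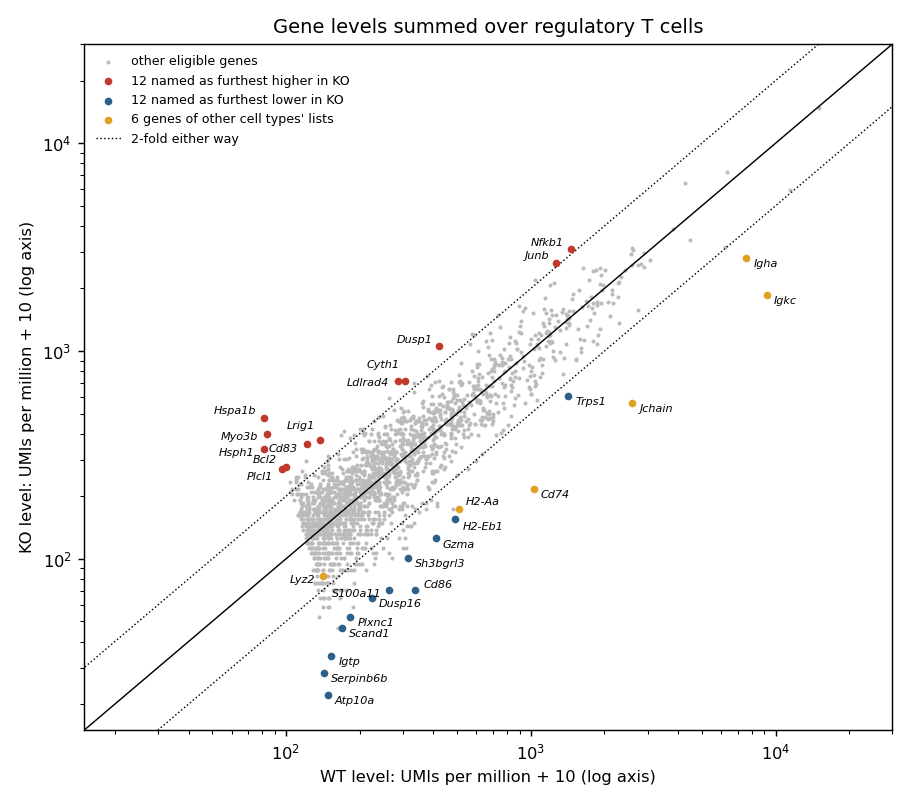
Levels of the 1920 eligible genes summed over regulatory T cells, with WT on the x axis and KO on the y axis, both in UPM plus 10 on log axes; each point is a gene and dotted lines mark 2-fold. The 12 genes named as furthest higher in KO (red) reach from Hspa1b to Nfkb1, the 12 furthest lower (blue) from Atp10a to Trps1, and 6 genes of other cell types' lists (yellow) include Igkc at 1844 UPM in KO and 9205 in WT.

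Genes of the NF-kB pathway were higher in KO regulatory T cells. NF-kB factors lie in the cytoplasm bound by inhibitors, enter the nucleus when receptors of the TNF family or antigen receptors fire, and switch on their own inhibitors; the c-Rel subunit supports the formation of regulatory T cells. Of 18 listed genes 11 were eligible, and 7 of these were at least 1.5-fold higher in KO and none lower, beside 9.79% higher and 12.2% lower over all eligible genes. The median log2 ratio of the 11 was 0.64, and that of the same genes in other T cells was 0.25.

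Nfkb1 (chr3:135584655-135691547), which encodes the p105 precursor of the p50 subunit, had 507 UMIs in 30 of 31 KO cells and 1060 UMIs in 108 of 116 WT cells. Its level was 3076 UPM in KO and 1447 in WT, a ratio of 2.13 (1.91 to 2.37), and the ratio in other T cells was 1.41. In single cells the lowest, median and highest Nfkb1 values were 0, 26.9 and 97.7 UMIs per 10000 in KO and 0, 12.5 and 69.8 in WT, so the medians stood apart while the ranges overlapped. Rel (chr11:23736847-23770970), which encodes c-Rel, had at least 1 UMI in all 31 KO cells and in 95 of 116 WT cells. Its single-cell values were 1.39, 20.5 and 75.7 in KO and 0, 7.57 and 44.3 in WT, and its summed level was 2178 UPM in KO and 1033 in WT (ratio 2.11, 1.85 to 2.39). In other T cells the Rel level was 928 UPM in KO and 725.5 in WT. After thinning to 1000 UMIs a Rel UMI was found in 83.9% of KO cells (66.3 to 94.6) and 44.0% of WT cells (34.8 to 53.5), against 51.2% and 42.7% of other T cells. B cells express Rel themselves, at 79.2% in KO and 62.6% in WT, and so give no background for it. Their levels were higher in KO as well, with Rel at 2200 UPM in KO and 1201 in WT. In B cells Nfkb1 stood at 899 in KO and 531 in WT, and Nfkbia at 681 and 536.

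The inhibitors that NF-kB switches on lay the same way. Nfkbia, which encodes IκBα, stood at 1189 UPM in KO and 576 in WT (ratio 2.06, 1.73 to 2.45), with single-cell medians of 9.51 UMIs per 10000 in KO and 4.77 in WT. It was higher in KO other T cells as well, at 1085 UPM against 592 in WT other T cells. Tnfaip3, which encodes the deubiquitinating enzyme A20, stood at 1298 in KO and 739 in WT (1.76, 1.49 to 2.06) and had a UMI in all 31 KO cells and in 109 of 116 WT cells. Its partner Tnip1 stood at 230.5 in KO and 145 in WT (1.59, 1.07 to 2.33). The adhesion molecule gene Icam1 stood at 206 and 102 (2.02, 1.30 to 3.06), and the ubiquitin ligase gene Birc3 at 406.5 and 268 (1.52, 1.13 to 2.01). Relb, Nfkbiz and Traf1 were 1.33-fold to 1.34-fold higher in KO, and Cflar was at a ratio of 0.889, none of them past 1.5-fold. For Nfkb1, Rel, Nfkbia and Tnfaip3 the ratio was above 1 both among Xist-class cells (1.58, 2.49, 1.80 and 2.17) and among Y-class cells (2.62, 1.98, 2.61 and 1.35).

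**Figure D3:**
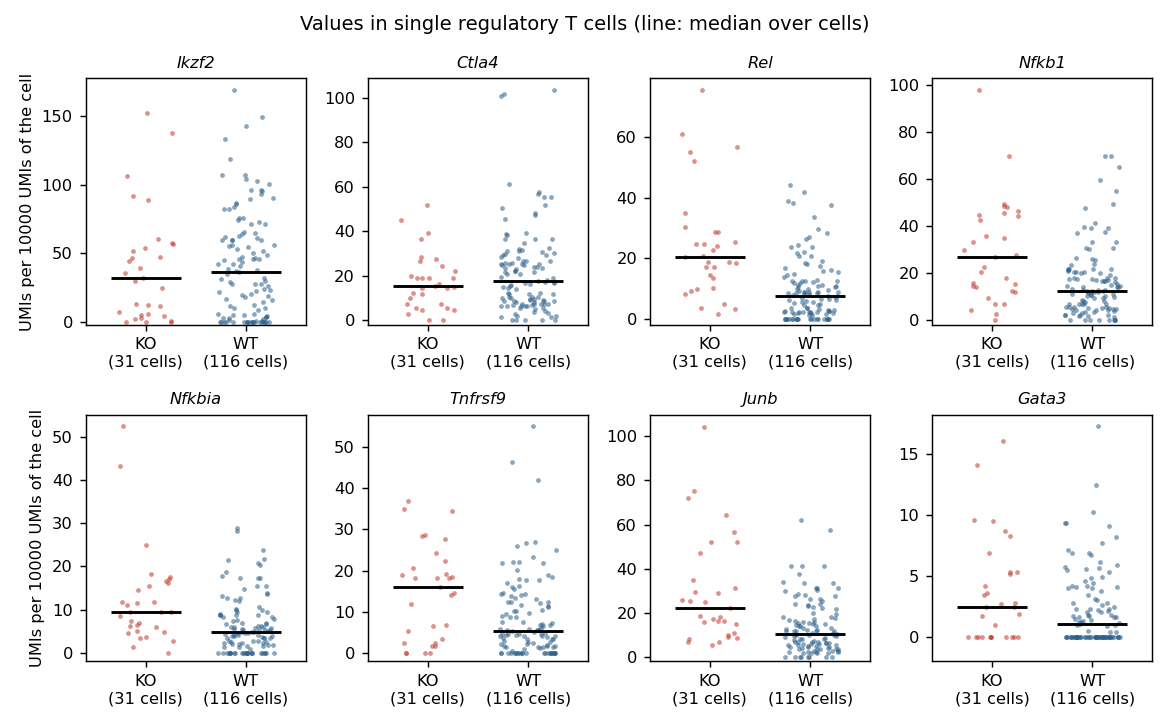
Values of 8 genes in single regulatory T cells, in UMIs per 10000 UMIs of the cell on the y axis, for 31 KO cells (red, left) and 116 WT cells (blue, right); each point is a cell and the line is the median over cells. The medians of Ikzf2 and Ctla4 lie close (32.3 in KO and 36.6 in WT for Ikzf2), while those of Rel (20.5 and 7.57), Nfkb1, Nfkbia, Tnfrsf9 (16.0 and 5.44) and Junb (22.3 and 10.7) lie higher in KO with overlapping ranges.

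Promoter sequences of 2 of these target genes and of the gene furthest higher in KO are shown because all 3 hold the letters that their best-known regulators read. Each is the 250 bases before the RefSeq start site (GRCm38.p6), 5′ to 3′ on the gene's strand. Capitals mark matches to GGANNNTCC, the inner letters of many NF-kB sites, in Nfkbia (chr12:55492648-55492897, minus strand) and Icam1 (chr9:21015690-21015939, plus strand), and to TTCNNGAA or GAANNTTC, the paired unit read by heat shock factor, in Hspa1b (chr17:34959239-34959488, minus strand).
Nfkbia: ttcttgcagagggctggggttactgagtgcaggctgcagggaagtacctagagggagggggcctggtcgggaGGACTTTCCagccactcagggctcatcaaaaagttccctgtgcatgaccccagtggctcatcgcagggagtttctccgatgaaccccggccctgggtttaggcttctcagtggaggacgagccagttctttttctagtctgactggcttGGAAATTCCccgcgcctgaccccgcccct
Icam1: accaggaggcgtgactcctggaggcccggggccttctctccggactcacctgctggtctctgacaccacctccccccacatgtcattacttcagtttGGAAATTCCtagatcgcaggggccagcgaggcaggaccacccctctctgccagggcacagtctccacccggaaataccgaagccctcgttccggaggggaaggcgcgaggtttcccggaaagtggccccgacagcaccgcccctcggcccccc
Hspa1b: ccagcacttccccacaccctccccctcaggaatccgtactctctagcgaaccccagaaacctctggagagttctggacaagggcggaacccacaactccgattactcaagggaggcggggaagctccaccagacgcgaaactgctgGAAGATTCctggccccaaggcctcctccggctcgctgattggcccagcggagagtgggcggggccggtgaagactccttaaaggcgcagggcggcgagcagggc
Each of these motifs reads the same on both strands, so 1 search covered both, and the 2 heat shock forms were searched together with overlaps allowed. Nfkbia held 2 NF-kB matches, Icam1 1 and Hspa1b 1 heat shock match. Over all 27025 genes with a window, 8.30% held the NF-kB letters and 14.5% a heat shock unit. Of the 8 eligible NF-kB genes with a window, 3 held the NF-kB letters (Nfkbia, Tnfaip3 and Icam1), and of the 7 eligible heat shock genes with a window, 5 held a heat shock unit. The NF-kB letters were also in 2 of those 7 heat shock windows, among them the Hspa1b window above, where they are left in lower case, and no NF-kB gene held a heat shock unit. A match describes the letters and does not show binding.

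Costimulatory and growth factor receptors upstream of these pathways were uneven. Tnfrsf9, a TNF family receptor that signals to NF-kB, stood at 1474 UPM in KO and 725 in WT (ratio 2.03, 1.74 to 2.37), with single-cell medians of 16.0 UMIs per 10000 in KO and 5.44 in WT. In other T cells the Tnfrsf9 level was 289 UPM in KO and 170 in WT. The share of regulatory T cells with a Tnfrsf9 UMI after thinning was closer, 58.1% in KO (39.1 to 75.5) and 50.9% in WT (41.4 to 60.3). Tnfrsf4 stood at 509.6 and 411 (1.24, 0.962 to 1.58). Tnfrsf18 lay the other way, at 139.5 in KO and 216 in WT (0.647, 0.399 to 1.01), and so did Icos, at 794.8 and 989.8 (0.803, 0.662 to 0.968), and Cd28, at 716 and 957 (0.748, 0.610 to 0.910). Of 6 eligible checkpoint and costimulation genes, 1 was at least 1.5-fold higher in KO and 1 lower, beside 9.79% and 12.2% over all eligible genes. The list median log2 ratio was -0.20 over all cells, 0.23 in Xist-class and 0.17 in Y-class cells. The Cd28 ratio was 2.08 in the Xist class and 0.421 in the Y class.

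Of 12 eligible genes of the IL-2 pathway, on which regulatory T cells depend for survival, 4 were at least 1.5-fold higher in KO and 1 lower. Over all eligible genes these shares were 9.79% and 12.2%. The list median log2 ratio was 0.34, against 0.25 in other T cells. Il2ra, the chain that gives the receptor its high affinity, stood at 413 UPM in KO and 214 in WT (ratio 1.92, 1.43 to 2.57), with a UMI in 23 of 31 KO and 72 of 116 WT cells. Il2rb, the signalling chain, stood at 516 and 371 (1.39, 1.08 to 1.78), and the common chain Il2rg at 103 and 168 (0.614, 0.347 to 1.02). The kinase gene Pim1, a STAT5 target, had a UMI in all 31 KO cells and 112 WT cells and stood at 1784 in KO and 1136 in WT (1.57, 1.37 to 1.80). Its ratio was nearly the same in other T cells, at 1.55. Bcl2, which protects cells from death, stood at 267 in KO (44 UMIs in 11 cells, 14 of them in 1 cell) and 90.1 in WT (66 UMIs in 24 cells), a ratio of 2.96 (1.98 to 4.40) against 1.31 in other T cells. Bcl2 was higher in Xist-class KO cells (ratio 4.04) and lower in Y-class KO cells, where the log2 ratio was -1.34 on 2 KO UMIs. Bcl2l11, which encodes the death-promoting BIM, stood at 146 and 240.3 (0.606, 0.378 to 0.931).

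The median log2 ratio of the 12 eligible TGF-β pathway genes was 0.29, against 0.19 in other T cells. Beside 9.79% higher and 12.2% lower over all eligible genes, 4 of them stood 1.5-fold or more higher in KO and none lower. These were Itgb8, its partner Itgav at 1547 UPM in KO and 916 in WT (1.69, 1.46 to 1.95), the receptor gene Tgfbr1 at 237 and 126 (1.88, 1.26 to 2.77), and Smad2, which carries the signal to the nucleus, at 224.5 and 99.7 (2.25, 1.47 to 3.39). Tgfb1 itself stood at 182 and 121.5 (1.5, 0.956 to 2.29). Without the top cell of each gene the list median was -0.02. Lrrc32, which holds latent TGF-β on the cell surface, and Itgae, the αE integrin chain that TGF-β induces, had too few UMIs to be eligible and stood at 109 and 38.2 UPM (2.86, 1.49 to 5.35) and at 188 and 79.2 (2.38, 1.48 to 3.74).

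On the list of GATA3-type tissue regulatory T cell genes, Gata3 and Areg stood at least 1.5-fold higher in KO over all cells and Il1r2 lower, while Gata3 and Areg each had a ratio below 1 in at least 1 of the Xist and Y classes. Gata3 (chr2:9857078-9890034) stood at 352 UPM in KO (58 UMIs in 20 cells) and 182 in WT (133 UMIs in 64 cells), a ratio of 1.94 (1.40 to 2.66). After thinning, a Gata3 UMI was found in 38.7% of KO cells (21.9 to 57.8) and 11.2% of WT cells (6.10 to 18.4), while other T cells stood at 11.8% and 11.5% and B cells at 0.812% and 0.408%. The gap was narrower at 2000 UMIs, with 41.9% of KO and 26.6% of WT cells (3 WT cells left out), and without thinning, with 64.5% and 55.2%. Among Xist-class cells the Gata3 log2 ratio was -0.04 and among Y-class cells -0.22, with 7 and 9 KO UMIs, and 42 of the 58 KO UMIs were in the 15 KO cells with neither kind of UMI. Il1rl1 stood at 315.5 in KO and 210 in WT (1.5, 1.07 to 2.07), with a log2 ratio of -0.19 in Y-class cells. Areg, which encodes the repair factor amphiregulin, stood at 261 in KO (43 UMIs in 16 cells, 16 of them in 1 cell) and 139 in WT (102 UMIs in 29 cells), a ratio of 1.87 (1.28 to 2.70), and its log2 ratio was -0.50 in Xist-class cells. Innate lymphoid cells of type 2 express these 3 genes as well, and their 8 listed markers, these among them, summed to 964.6 in KO and 586 in WT regulatory T cells, with their cytokine genes Il5 and Il13 at 0 UMIs in both. The decoy IL-1 receptor gene Il1r2, another member of the list, stood at 48.5 and 138 (0.352, 0.148 to 0.720). On this list of 9 eligible genes 2 lay at least 1.5-fold higher and 1 lower, with a median log2 ratio of 0.44. The median became -0.13 with at least 2 Foxp3 UMIs, where 4 genes were eligible, and -0.12 in Xist-class cells, where 3 were.

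Genes linked to microbe-induced and helper 17-like regulatory T cells were sparse, and nearly all UMIs of Cxcr6, Il23r and Il17a came from WT. Cxcr6, a chemokine receptor of mucosal T cells, had no UMI in the 31 KO cells and 50 UMIs in 27 WT cells, so at a floor of 3 UMIs over the KO cells it was at least 3.75-fold lower in KO. In other T cells Cxcr6 differed by a ratio of 0.693. The IL-23 receptor gene Il23r had 3 UMIs in 2 KO cells and 60 UMIs in 17 WT cells, a ratio of 0.222 (0.0446 to 0.681), against 1.40 in other T cells. Il17a had no UMI in KO and 48 in 6 WT cells, but 1 of those cells held 40 of them, and 4 of the 6 also had an Ikzf2 UMI. Maf, by contrast, stood at 843 and 695 (1.21, 0.999 to 1.47) and Rora at 2409 and 1779 (1.35, 1.21 to 1.52), with a Rora ratio of 0.922 in Xist-class cells. Over the 4 eligible genes of the microbe-induced list the median log2 ratio was 0.36, with none 1.5-fold or more higher in KO and 1 that much lower. The summed level of 7 helper 17 genes was 72.8 in KO and 214 in WT regulatory T cells, against 921 and 749 in other T cells.

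Of 12 eligible core regulatory T cell genes 3 were at least 1.5-fold higher in KO (Cd83, Tnfrsf9 and Il2ra) and 2 lower (Irf4 and Tnfrsf18), with a median log2 ratio of 0.38 against 0.17 in other T cells. Suppressive effector genes showed no common direction, with 2 of 9 eligible genes at least 1.5-fold higher in KO and 1 lower and a median log2 ratio of 0.01. The higher ones were Itgb8 and Areg, and the lower one was Lgals1, which encodes galectin-1, at 133.5 UPM in KO and 314 in WT (0.425, 0.261 to 0.659). Granzyme B (Gzmb) stood at 497.5 and 728 (0.684, 0.535 to 0.864), but its ratio was 1.37 in Xist-class and 1.31 in Y-class cells. Elsewhere it had 18 KO and 251 WT UMIs. The adenosine-producing ectoenzyme gene Nt5e (CD73) stood at 321.5 and 319.5. Nrp1, a surface marker of thymus-derived regulatory T cells, had no UMI in KO and 18 UMIs in 13 WT cells. Its intervals of 0 to 22.4 UPM in KO and 14.6 to 38.8 in WT overlapped, so a lower level in KO was not detectable. In other T cells Nrp1 stood at 7.81 UPM in KO and 25.9 in WT. Cd83, a surface protein of activated regulatory T cells, was among the 12 furthest higher, at 346 in KO (57 UMIs in 21 cells) and 112 in WT (82 UMIs in 36 cells), a ratio of 3.09 (2.16 to 4.38) against 1.19 in other T cells. Its log2 ratio was 1.59 in Y-class and -0.25 in Xist-class cells. Irf4, which supports the effector state, stood at 66.7 and 126 (0.531, 0.256 to 0.996).

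**Figure D4:**
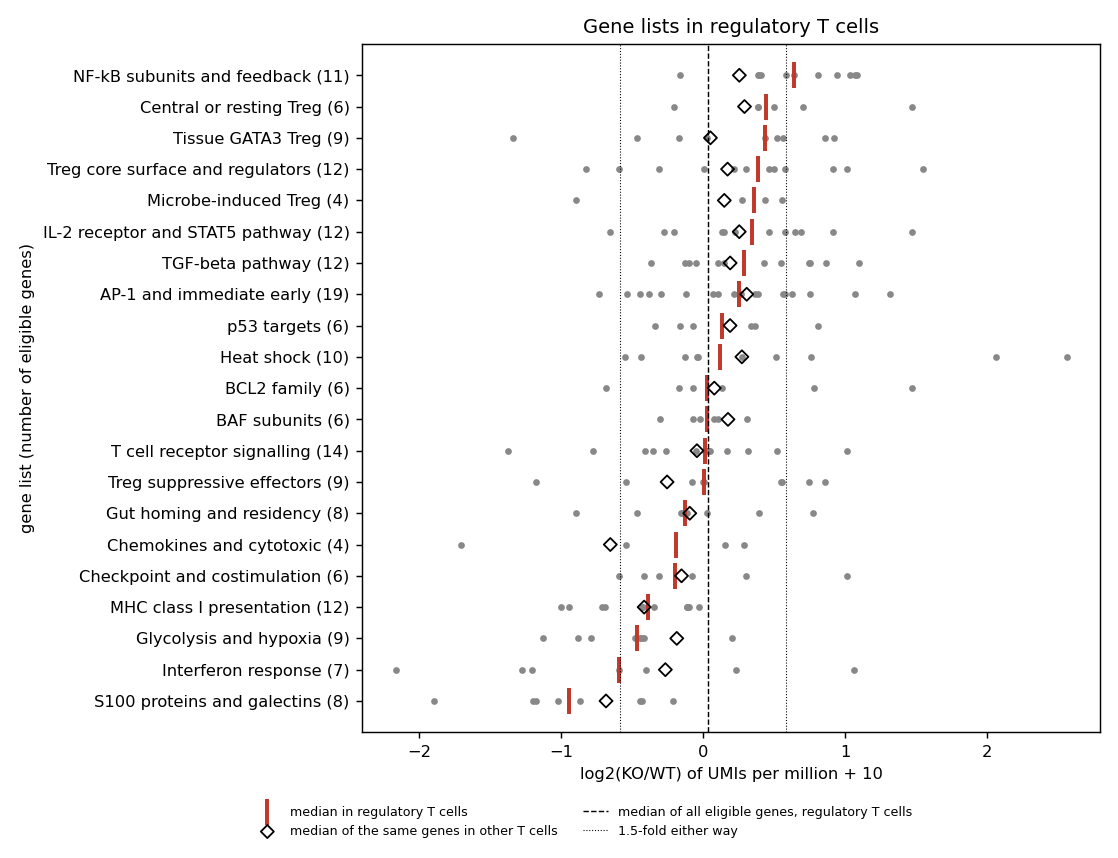
Log2 ratios of KO over WT levels (plus 10 UPM) in regulatory T cells on the x axis, for the eligible genes of 21 lists on the y axis; gray points are genes, red bars the list medians, open diamonds the medians of the same genes in other T cells, the dashed line the median of all eligible genes and dotted lines 1.5-fold. The NF-kB list has the highest median (0.64) and the list of S100 proteins and galectins the lowest (-0.94).

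Immediate early genes were mixed. Among its 19 eligible genes, 4 lay at least 1.5-fold higher in KO and 1 lower, and the median log2 ratio of 0.25 was below that of the same genes in other T cells, 0.31. Junb, an AP-1 subunit, had a UMI in all 31 KO cells and 108 WT cells and stood at 2651 UPM in KO and 1261 in WT (ratio 2.10, 1.87 to 2.36), with single-cell medians of 22.3 and 10.7 UMIs per 10000. The Junb ratio in other T cells was 1.57. Dusp1, a phosphatase that switches off MAP kinases, stood at 1044 and 414 (2.52, 2.08 to 3.05), with ratios of 1.06 in Xist-class and 2.49 in Y-class cells. Fosl2 (667 and 429) and Nr4a3 (704 and 414) were the other higher members. Jun stood at 84.9 and 147 (0.576, 0.305 to 1.01) and was the lower member, while Jund stood at 752 and 980.2 (0.768, 0.629 to 0.930). Fos (285 in KO and 235 in WT), Fosb (291 and 318) and Egr1 (170 and 157) lay within 1.5-fold.

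Heat shock genes split into an inducible pair and the rest. Hspa1b, which encodes inducible HSP70, had 77 UMIs in 14 KO cells and 52 UMIs in 21 WT cells, a level of 467 UPM in KO and 71.0 in WT and a ratio of 6.58 (4.57 to 9.54). Its near-identical neighbour Hspa1a had 23 and 24 UMIs, and reads may be split between both genes. Hsph1, a cochaperone of HSP70, stood at 328 and 71.0 (4.62, 3.09 to 6.89), with a UMI in 19 KO and 35 WT cells. The Hspa1b ratio was 14.7 in Xist-class cells and 0.999 in Y-class cells, where the KO level rested on 2 UMIs, and that of Hsph1 was 9.95 and 3.23. Other T cells held the same direction, with ratios of 3.65 for Hspa1b and 2.72 for Hsph1, and had more Hspa1b than the regulatory T cells, at 766 in KO and 210 in WT. After thinning, 12.9% of KO and 6.03% of WT regulatory T cells had an Hspa1b UMI, against 25.97% and 11.3% of B cells. Dnaja1 was the third gene past 1.5-fold of 10 eligible (497.5 and 289; 1.72, 1.32 to 2.23). Hspa8 (667 and 684) and Hsp90ab1 (1086 and 1188) were close, and the endoplasmic reticulum chaperone gene Hspa5 stood at 661 and 972 (0.680, 0.551 to 0.833).

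The other genes furthest higher in KO had no common list. Myo3b, a myosin gene, stood at 388 UPM in KO and 73.7 in WT (ratio 5.27, 3.61 to 7.71), and 27 of its 64 KO UMIs were in 1 cell. Ldlrad4, an inhibitor of TGF-β signalling, stood at 709.8 and 277 (2.56, 2.02 to 3.23), against a ratio of 1.02 in other T cells. Lrig1, a regulator of growth factor receptors, stood at 364 and 128 (2.84, 2.02 to 3.96), against 1.05. Cyth1 stood at 709.8 and 298 (2.39, 1.89 to 2.999). Plcl1 stood at 261 and 86.0 (3.03, 2.01 to 4.54), but 26 of its 43 KO UMIs were in 1 of 8 cells, and its log2 ratio was 0.40 without the top cells and 0.13 without called doublets.

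Of the genes kept in the ranking, most of those furthest lower in KO rested on few KO UMIs. Atp10a, a phospholipid flippase gene (chr7:58656166-58829420), had 2 UMIs in KO and 101 in WT, a ratio of 0.0880 (0.0105 to 0.326), against 0.891 in other T cells. Serpinb6b had 3 and 97 UMIs (0.137, 0.0279 to 0.414), and Igtp, an interferon-induced GTPase gene, 4 and 105 UMIs (24.3 UPM in KO and 143 in WT; 5.91-fold lower). S100a11 stood at 60.7 and 253 (4.16-fold lower), Dusp16 at 54.6 and 214 (3.93-fold), Plxnc1 at 42.5 and 173 (4.08-fold), Scand1 at 36.4 and 160 (4.39-fold) and Sh3bgrl3 at 91.0 and 304 (3.35-fold). Trps1, a repressor of GATA targets, had the most UMIs of the 12, at 601 in KO and 1407 in WT (2.34-fold lower), with single-cell medians of 2.69 and 6.05 UMIs per 10000. In Xist-class cells the Plxnc1, Trps1 and Serpinb6b log2 ratios were -0.10, -0.24 and -0.83, less than 2-fold. The same held in Y-class cells for Sh3bgrl3 (-0.33), Dusp16 (-0.74) and S100a11 (-0.79).

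A further 3 of the lowest genes belong to other cells as well. Cd86, a costimulatory ligand of antigen-presenting cells, stood at 60.7 UPM in KO and 326 in WT (5.38-fold lower), with 69 of its 239 WT UMIs in 1 cell. H2-Eb1, an MHC class II chain, stood at 146 and 482 (3.31-fold lower), with 77 of 353 WT UMIs in 1 cell. Without called doublets, 1 of the 31 KO and 7 of the 116 WT cells, the log2 ratio was -1.48 for Cd86 and -0.79 for H2-Eb1, against -2.25 and -1.66 with them. The summed B cell and dendritic cell genes given above were lower in KO as well, and their part was not tested. Granzyme A (Gzma), a killer cell gene, had 19 UMIs in 3 KO cells and 292 in 25 WT cells (3.46-fold lower), and its log2 ratio was 0.60, higher in KO, among Y-class cells. The summed CD8 and NK cell genes, both of which include Gzma, were lower in KO as given above, and their part was not tested.

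**Figure D5:**
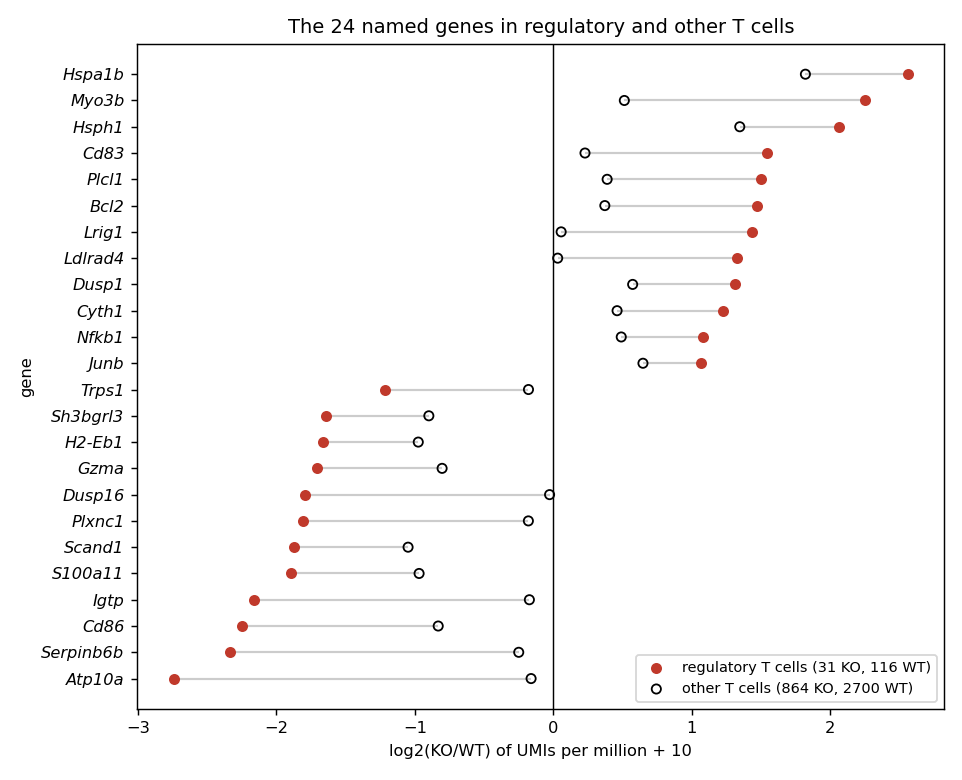
Log2 ratios of KO over WT levels (plus 10 UPM) on the x axis for the 24 genes ranked furthest apart in regulatory T cells (y axis), with red points for regulatory T cells and open circles for other T cells. The 12 lower and 12 higher genes keep their direction in other T cells but lie closer to 0 there. They were chosen as extremes in regulatory T cells, a choice that by itself favours values closer to 0 in other T cells. Ldlrad4, Lrig1 and Dusp16 lie near 0 in other T cells.

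Lists of S100 proteins and galectins, MHC class I presentation and glycolysis had medians below 0, and over all 1920 eligible genes 899 had a ratio below 1 and 12.2% were at least 1.5-fold lower in KO. The cytoskeletal genes Actb (3143 UPM in KO and 6218 in WT, ratio 0.505, 0.461 to 0.554) and Tmsb4x (5927 and 11416, 0.519, 0.486 to 0.555), which most cells express, were lower as well, in other T cells too (0.578 and 0.531), and their part in these lists was not tested. All 8 eligible S100 protein and galectin genes had a ratio below 1, 5 of them at least 1.5-fold lower, with a median log2 ratio of -0.94 against -0.68 in other T cells. S100a4 stood at 91.0 UPM in KO and 221 in WT (0.412, 0.225 to 0.699) and S100a10 at 285 and 589.8 (0.484, 0.350 to 0.654). The S100 median was 0.03 among Xist-class cells, where 3 genes were eligible. All 12 eligible genes of MHC class I presentation had a ratio below 1, 4 of them at least 1.5-fold lower, and the median was -0.39 against -0.41 in other T cells. The members with the most UMIs were close, B2m at 1711 and 1850 and H2-K1 at 2621 and 2807, while the folding factors Pdia3 (176 and 362; 0.486, 0.319 to 0.715) and Calr (261 and 434; 0.601, 0.426 to 0.828) stood apart. The MHC class I median was -0.04 with at least 2 Foxp3 UMIs, -0.07 in Xist-class cells and 0.16 in Y-class cells. Each of these was taken over the genes eligible in that setting, which were 5 genes in Y-class cells.

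Of 9 eligible glycolysis and hypoxia genes, 8 had a ratio below 1 and 3 were at least 1.5-fold lower, with a median log2 ratio of -0.47 against -0.19 in other T cells. Ldha, which makes lactate, stood at 127 UPM in KO and 291 in WT (0.438, 0.266 to 0.687), Gapdh at 382 and 711 (0.537, 0.407 to 0.699) and Eno1 at 84.9 and 154 (0.551, 0.292 to 0.963), while the hypoxia factor gene Hif1a stood at 843 and 730.4 (1.15, 0.951 to 1.39). Interferon response genes had a median log2 ratio of -0.60 against -0.27 in other T cells. Among the 7 eligible, 1 lay at least 1.5-fold higher and 4 lower, Igtp, Iigp1 (84.9 and 220), Ly6a (115 and 278.5) and Ly6e (334 and 509). The Iigp1 ratio was 1.06 in Xist-class cells and the Ly6e ratio 1.202 in Y-class cells.

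Radiation response genes of the p53 pathway stood apart little in regulatory T cells. Of 6 eligible p53 targets 1, Pvt1, was at least 1.5-fold higher in KO (328 and 183; 1.79, 1.28 to 2.47), with a median log2 ratio of 0.13. Cdkn1a, the cell cycle brake p21, stood at 218 in KO and 278.5 in WT (0.784, 0.534 to 1.12), against a ratio of 1.59 in other T cells. Mdm2, which feeds back on p53, stood at 194 and 218 (0.889, 0.588 to 1.30). Of 6 eligible BAF subunit genes none reached 1.5-fold either way, with Arid1a at 139.5 in KO and 142 in WT and Pbrm1 at 182 and 145.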

How the data were processed

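Both libraries are droplet libraries of poly-A RNA with UMIs. The deposited values are raw UMI counts per gene and barcode, one matrix a library, made with Cell Ranger 7.0.0 on GRCm38, per the submitters' processing notes. Whether introns were counted and which annotation was used are details that the sources used here do not give. UMIs were summed over the selected cells and divided by their total, with exact Poisson intervals for levels, conditional binomial intervals for ratios and Clopper-Pearson intervals for shares, all at 95%. Log2 ratios used a pseudocount of 10 UPM. Cells were thinned without replacement to 1000 UMIs for shares. Doublets were called with Scrublet (scanpy 1.11.5) as an alternative and were kept otherwise, 1 KO and 7 WT regulatory T cells among them. The other tools were numpy 2.4.6, pandas 2.3.3, scipy 1.17.1 and matplotlib 3.10.9, and the ratios were checked on simulated counts. The members, gene lists and alternatives were chosen with earlier results of these data known. Genes named are the 5 markers and Dpf2, the 12 furthest apart in each direction by the interval bound nearest to 1, up to 6 of other cells' lists, the 15 highest and 10 lowest against other T cells, and members of each list with the most UMIs or furthest apart. Unnamed gene models, ribosomal, mitochondrial, receptor segment and sex-linked genes were left out of the ranking between genotypes. So were haemoglobin genes, genes used by the selection rule, and genes of the B cell, plasma cell, monocyte or macrophage, dendritic cell, neutrophil, stromal and epithelial lists. Genes named in addition (Cxcr6, Il23r, Il17a, Nrp1, Lrrc32, Itgae and Hspa1a, not eligible, and list members beyond 4 a list) were chosen after their values were seen. Gene positions are those of GENCODE vM21 (GRCm38), in which 54723 of 54838 gene IDs were found, and promoter windows are those of RefSeq (GRCm38.p6). Some members of these lists are not reported here.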

Additional observations from a re-analysis of the deposited data

Results flagged for a closer look

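Single genes whose ratio of KO over WT lay on opposite sides of 1, with both counting intervals clear of 1, are given here. Each rests on 1 library per genotype, and the difference between the classes was not tested. Between regulatory T cells and other T cells, Areg had a log2 ratio of 0.86 in regulatory T cells and -0.61 in other T cells. Itga4, the α4 integrin chain of gut homing, had 0.40 and -0.37, and Trp53inp1, a p53 target, had 0.34 and -0.31. Nr4a2, an immediate early nuclear receptor gene, lay the other way with -0.44 in regulatory T cells and 0.31 in other T cells, as did Bcl2l11 with -0.69 and 0.18. Within regulatory T cells the Itga4 ratio was 0.984 in Xist-class and 1.06 in Y-class cells. KO cells of neither class held 62 Itga4 UMIs, against 18 and 23 in the Xist and Y classes.

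Within the regulatory T cells, 4 genes lay on opposite sides of 1 in cells with Xist UMIs only and in cells with Y-linked UMIs only, each class with 8 KO cells. Cd274, which encodes the checkpoint ligand PD-L1, had a log2 ratio of 1.39 in Xist-class cells and -1.77 in Y-class cells, and Cd28 had 1.05 and -1.23. Stat5b, which carries the IL-2 signal, had 0.68 and -0.85, and Rgs1, a brake on chemokine signalling, had 0.91 and -0.86. With 191 genes looked at in this way, some opposite pairs would arise by chance, and how many was not tested.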

How the results depend on the processing

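With 1 library per genotype no result has a replicate check, and counting intervals leave out differences between mice. The 31 KO cells held 164827 UMIs against 732506 in the 116 WT cells, so a gene under about 18.2 UPM (3 UMIs) could not be read in KO. No paired analysis was possible because there was 1 library per genotype and the values come from no test. The ratio of shares of T cells kept its side of 1 except with a Cd4 UMI required (1.03), with every interval across 1. The 41 genes at least 2-fold higher became 18 with a pseudocount of 50, 76 at a minimum of 50 UMIs, 15 at 200 UMIs, 578 with no minimum, 25 without called doublets, 26 at 2 Foxp3 UMIs, 19 with a Cd4 UMI, 26 in Xist-class cells, 22 in Y-class cells and 12 without the top cell of each gene, an alternative added after the data were seen. The 72 lower became 27 with a pseudocount of 50, 164 at 50 UMIs, 30 at 200 UMIs, 771 with no minimum and 47 in Xist-class cells. Of the first 41 and 72 genes, 18 and 27 stayed past 2-fold with a pseudocount of 50, 25 and 58 without called doublets, 19 and 43 in Xist-class cells and 26 and 43 in Y-class cells.

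Of 564 recomputed log2 ratios 26 changed sign, 10 of them for genes whose overall interval was clear of 1. In Xist-class cells these were Itgb8 (-1.12), Il10 (-0.86), Gata3 (-0.043), Areg (-0.50) and Cd83 (-0.25), and in Y-class cells Gata3 (-0.22), Il1rl1 (-0.19), Hspa1b (-0.001), Bcl2 (-1.34) and Gzma (0.60). Of 322 recomputed list medians 46 changed sign, 7 of them for lists with an overall median at least 0.3 from 0. The microbe-induced list had -0.26 at a minimum of 50 UMIs, -0.44 with no minimum and -0.014 as a mean over cells, the GATA3 list -0.13 at 2 Foxp3 UMIs and -0.12 in Xist-class cells, MHC class I 0.16 in Y-class cells and the S100 list 0.034 in Xist-class cells. Each recomputed median was taken over the genes eligible in its own setting, for MHC class I 5 in Y-class cells against 12 over all cells. The part of this change of genes in the sign changes was not tested.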

Other observations

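Genes of resting, central-type T cells stood somewhat higher in KO over all regulatory T cells, while most were lower among Y-class cells. Among the 6 eligible genes, 2 (Bcl2 and Lef1) lay at least 1.5-fold higher and none lower, beside 9.79% and 12.2% over all eligible genes. The list median log2 ratio was 0.44, against 0.29 for the same genes in other T cells. Bach2, a repressor that holds T cells in a resting state, stood at 1153 UPM in KO and 812 in WT (ratio 1.42, 1.199 to 1.67), with a UMI in 22 KO and 83 WT cells and a ratio of 0.892 in Xist-class cells. Satb1, a chromatin organiser of T cells, stood at 1007 and 769 (1.31, 1.10 to 1.56). Lef1, a transcription factor of naive T cells, stood at 188 and 112 (1.68, 1.07 to 2.57) and was found in 9 KO and 32 WT cells, but in Y-class cells it had 0 KO and 45 WT UMIs. Klf2, which drives recirculation, stood at 243 and 183 (1.33, 0.908 to 1.90), against a ratio of 0.712 in other T cells and 0.511 in Y-class cells. Y-class log2 ratios were also below 1-fold for Lef1 (-4.13), Bcl2 (-1.34) and Il7r (-0.84), on 0, 2 and 6 KO UMIs. Those of Bach2 (0.84) and Satb1 (0.50) were higher in KO.

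T cell receptor signalling genes had a median log2 ratio of 0.02 over 14 eligible genes (-0.39 in Y-class cells). Beside 9.79% higher and 12.2% lower over all eligible genes, 1 of the 14 was at least 1.5-fold higher and 2 lower. Nfatc1, which antigen signals switch on, was the higher one, at 285 UPM in KO and 136.5 in WT (2.09, 1.44 to 2.98). Prkcq, which encodes the kinase that links the receptor to NF-kB, was lower at 54.6 and 157 (0.348, 0.155 to 0.684), and so was the adaptor gene Lcp2 at 164 and 288 (0.569, 0.366 to 0.851), with a ratio of 1.15 in Xist-class cells. Malt1, another link of receptor to NF-kB, stood at 406.5 and 523 (0.777, 0.591 to 1.01). Among 6 eligible genes of the BCL2 family, Bcl2l1, which encodes the protective BCL-XL, stood at 249 and 141 (1.77, 1.201 to 2.56), with 0.977 in Y-class cells, beside Bcl2, while Mcl1 stood at 413 and 375 (1.10, 0.830 to 1.44).

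Over 8 eligible gut homing and residency genes the median log2 ratio was -0.13, with 1 gene at least 1.5-fold higher and 1 lower. Cxcr4 stood at 291 UPM in KO and 167 in WT (1.75, 1.22 to 2.46). Cd69, a residency marker, stood at 285 and 308.5, and the gut integrin chain Itgb7 at 121 and 119. Of 4 eligible chemokine and cytotoxic genes, Ccl5 stood at 346 and 310 (1.12, 0.820 to 1.498), against a ratio of 0.519 in other T cells. Its ratio was 0.305 in Xist-class and 0.0454 in Y-class cells, on 3 and 1 KO UMIs. The 15 KO cells with neither kind of UMI held 53 KO Ccl5 UMIs, so the overall level rested on those cells. The 3 eligible cell cycle genes lay within 1.5-fold, and Mki67 or Top2a UMIs were found in 2 of 31 KO and 14 of 116 WT cells.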
